A study of Mus musculus with 18 samples.

Results

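The mitochondrially encoded transcripts were the 37 rows, of 55291 genes in the table, whose name begins with mt-. They comprised 13 protein-coding genes, 2 ribosomal RNA (rRNA) genes and 22 transfer RNA (tRNA) genes. Membership rested on the name alone and used no measured value. The data were bulk RNA sequencing of subcutaneous mouse tumours, in 18 libraries that form 6 groups of 3. Tumours were grown from LL/2 cells (Lewis lung carcinoma, labelled LL2), CT26-NY-ESO-1 cells (labelled CT26NYESO1, a CT26 line that bears the name of a human tumour antigen) or CT26 cells (colon carcinoma), in C57BL/6J or BALB/cJ mice. OK432 tumours had OK-432, a penicillin-treated lyophilised preparation of Streptococcus pyogenes, in the tumour for 24 hours, Ctrl tumours had none, and per the labels' protocols every tumour was taken on day 14. The sources used here do not give what, if anything, the Ctrl tumours were injected with. Each line is 1 cell line, and a library holds the tumour cells together with the cells of the host. Whether libraries of 1 group stem from different mice is not stated in the labels. The p-values therefore rest on the variation among libraries, part of which may be technical.

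The mouse mitochondrial genome is a small circle present in many copies per cell. Both of its strands are transcribed into long precursors, which are cut largely at the tRNAs that stand between the other genes. Its messenger RNAs encode core subunits of respiratory complexes I, III, IV and V, its rRNAs form the core of the mitochondrial ribosome, and its tRNAs serve translation inside the organelle. All other proteins of the mitochondrion, including the remaining subunits of these complexes and all of complex II, come from nuclear genes. Library preparation used TruSeq Stranded mRNA, per the labels' protocols. Such kits select polyadenylated RNA, so the rRNA and tRNA rows give what passed that selection and not the cellular amounts of those RNAs.

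On the mm10 build (GENCODE M21 annotation), 28 of the 37 genes lie on the plus strand of chromosome M and 9 on the minus strand, which are mt-Nd6 and 8 tRNAs. The genes are packed so closely that 9 neighbouring pairs overlap in the annotation. The longest overlap is the 43 bases that mt-Atp8 (chrM:7766-7969) and mt-Atp6 (chrM:7927-8607), the membrane subunits of complex V, share on the plus strand. The end of mt-Atp8 and the start of mt-Atp6 are shown because a read from this stretch fits both rows. The 43 shared bases are in capitals, and the stretches lie at chrM:7887-7969 and chrM:7927-8009 on the plus strand.
mt-Atp8: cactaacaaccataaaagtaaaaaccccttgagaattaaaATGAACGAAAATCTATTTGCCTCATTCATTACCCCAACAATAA
mt-Atp6: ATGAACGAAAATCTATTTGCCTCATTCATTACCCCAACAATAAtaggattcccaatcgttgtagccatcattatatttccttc

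A second sequence fact bears on the levels of 6 of the coding genes. A stretch of nuclear chromosome 1 (chr1:24611535-24616197, minus strand) carries 6 annotated unprocessed pseudogenes, all rows of the table, that copy parts of 6 mitochondrial genes. Gm28661 matched bases 1 to 681 of mt-Co2, Gm10925 bases 1 to 678 of mt-Atp6, Gm28437 bases 1 to 783 of mt-Co3, Gm28438 bases 4 to 345 of mt-Nd3 and Gm28439 bases 1 to 876 of mt-Nd4, each with 0 mismatches. Gm29216 matched bases 1063 to 1545 of mt-Co1 with 1 mismatch, A1066T, counted from the first base of the mt-Co1 transcript, with the base of mt-Co1 first. The first 60 bases of the mt-Co3 pair (chrM:8607-8666, plus strand, and chr1:24613912-24613971, minus strand) and 60 bases of the mt-Co1 pair (chrM:6390-6449, plus strand, and chr1:24616129-24616188, minus strand) are shown to make the likeness visible. The capital marks the 1 position at which the mt-Co1 pair differs.
mt-Co3: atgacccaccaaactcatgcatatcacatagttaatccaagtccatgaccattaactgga
Gm28437: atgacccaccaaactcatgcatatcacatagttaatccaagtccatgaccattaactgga
mt-Co1: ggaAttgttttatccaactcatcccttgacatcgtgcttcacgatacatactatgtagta
Gm29216: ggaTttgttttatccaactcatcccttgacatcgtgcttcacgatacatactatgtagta

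The copies were listed at levels that tracked the mitochondrial genes closely. TPM, the unit of the deposited table, is a length-scaled abundance that sums to 1000000 in each library. Across the 18 libraries the TPM of Gm28661 was 1.004 to 1.006 times that of mt-Co2, that of Gm28437 was 1.003 to 1.007 times that of mt-Co3, and that of Gm10925 was 1.06 to 1.07 times that of mt-Atp6. The ratio ran from 1.16 to 1.26 for Gm28438 over mt-Nd3, from 0.541 to 0.592 for Gm28439 over mt-Nd4 and from 0.214 to 0.255 for Gm29216 over mt-Co1. Reads cannot be assigned between such identical sequences, and whether the authors' counting placed a read at both places or divided it cannot be told apart from TPM. Adding each copy to its gene moved the 36 log2 ratios between group means by at most 0.0305, so comparisons between groups were little touched. Comparisons of level between mitochondrial genes do depend on it, for mt-Co1, mt-Co2, mt-Co3, mt-Atp6, mt-Nd3 and mt-Nd4. The plot of copies against genes shows this relation library by library.

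**Figure D1:**
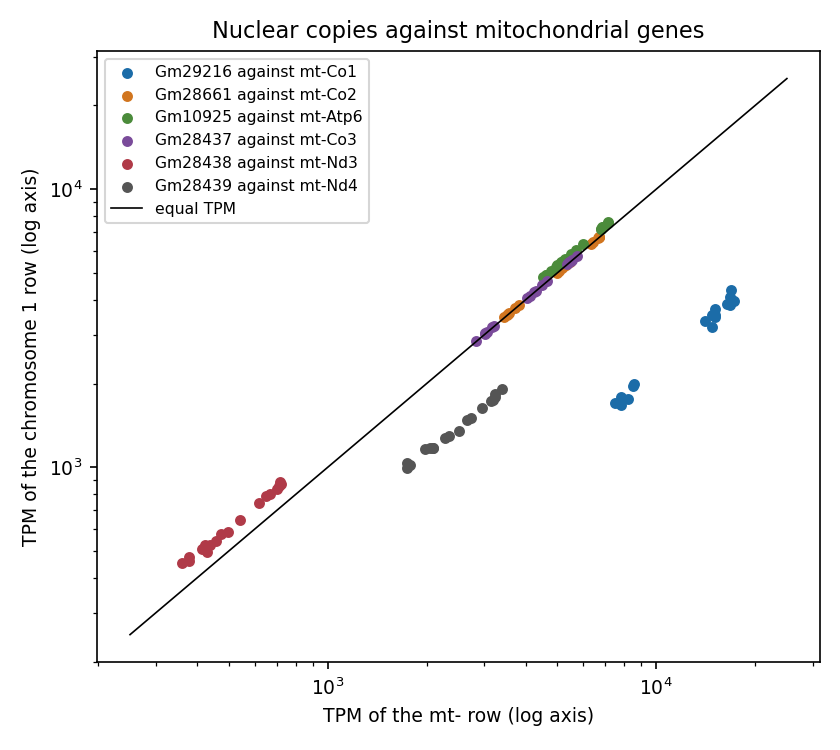
TPM of the 6 chromosome 1 rows (vertical, log axis) against TPM of the mitochondrial gene each copies (horizontal, log axis), 1 point per library, 18 per pair. The points of Gm28661, Gm28437 and Gm10925 lie on or just above the line of equal TPM, those of Gm28438 above it, and those of Gm28439 and Gm29216 below it.

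The share of TPM in the 37 rows differed by tumour line and hardly with OK-432. It was 7.08%, 7.09% and 7.48% in LL2 OK432 tumours, against 7.33%, 7.17% and 7.26% in LL2 Ctrl tumours. It was 5.95%, 6.21% and 5.81% in CT26NYESO1 OK432 tumours, against 6.26%, 6.63% and 5.91% in CT26NYESO1 Ctrl tumours. In CT26 it was 4.65%, 4.21% and 4.59% in OK432 tumours, against 4.16%, 4.47% and 4.29% in Ctrl tumours. OK432 and Ctrl libraries overlapped in each of the 3 lines, while no library of one line reached the range of another. The group means were 7.22% ± 0.225 in LL2 OK432 and 7.25% ± 0.0783 in LL2 Ctrl, 5.99% ± 0.202 in CT26NYESO1 OK432 and 6.27% ± 0.357 in CT26NYESO1 Ctrl, and 4.48% ± 0.240 in CT26 OK432 and 4.31% ± 0.155 in CT26 Ctrl (SD, n = 3 each). Among Ctrl tumours the mean share was 1.68 times as high in LL2 as in CT26, 1.45 times in CT26NYESO1 as in CT26, and 1.16 times in LL2 as in CT26NYESO1. These ratios are descriptions of the sum, without a test. With the chromosome 1 copies added, the mean shares were 9.86% in LL2 Ctrl, 8.37% in CT26NYESO1 Ctrl and 5.78% in CT26 Ctrl.

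**Figure D2:**
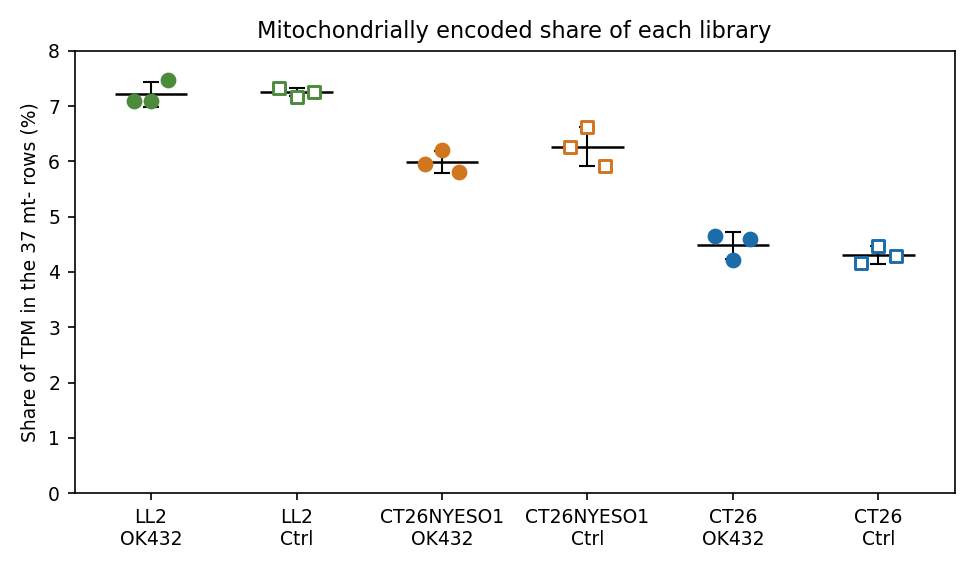
Share of each library's TPM (percent, vertical axis from 0) in the 37 mitochondrial rows, by tumour line and treatment; points are libraries, the horizontal line is the mean and the bar ± 1 SD (n = 3). LL2 libraries lie between 7.08% and 7.48%, CT26NYESO1 between 5.81% and 6.63% and CT26 between 4.16% and 4.65%, with OK432 and Ctrl overlapping in each line.

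Nearly all of this share came from the protein-coding genes. In Ctrl tumours the 13 genes held 6.91% ± 0.0580 of TPM in LL2, 5.96% ± 0.329 in CT26NYESO1 and 4.11% ± 0.154 in CT26 (SD, n = 3 each). The 2 rRNA rows held 0.0576% in LL2 Ctrl, 0.0581% in CT26NYESO1 Ctrl and 0.0492% in CT26 Ctrl. The 22 tRNA rows held 0.280%, 0.252% and 0.143% in the same order of lines. By mean TPM over all libraries mt-Co1 ranked 1 of all rows of the table, mt-Atp8 3, mt-Cytb 5, mt-Atp6 6, mt-Co2 8, mt-Nd1 10 and mt-Co3 12. Rows at ranks 4, 7 and 11 were the copies Gm10925, Gm28661 and Gm28437.

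The order of the coding genes by TPM, a per-length level, was similar in the lines at both ends and varied in the middle. In LL2 Ctrl and CT26NYESO1 Ctrl tumours mt-Co1 was followed by mt-Atp8, mt-Cytb and mt-Atp6, and in CT26 Ctrl by mt-Atp8, mt-Atp6 and mt-Nd1. mt-Co1 stood clear of the next gene in every library of all 6 groups. In LL2 Ctrl mt-Co3 and mt-Nd1 could not be ordered, since their libraries overlapped. There mt-Nd5 overlapped both mt-Nd4l and mt-Nd6, and mt-Nd4l lay above mt-Nd6. In CT26NYESO1 Ctrl each gene from mt-Atp8 down to mt-Co2 overlapped the next, as did mt-Nd4 and mt-Nd2, and mt-Nd5, mt-Nd6 and mt-Nd4l. In CT26 Ctrl mt-Nd1 overlapped mt-Cytb, mt-Nd4 overlapped mt-Nd2, and mt-Nd4l overlapped mt-Nd6. mt-Nd3 was the lowest coding gene in every group, with 666 to 721 TPM in LL2 Ctrl, 472 to 616 TPM in CT26NYESO1 Ctrl and 361 to 379 TPM in CT26 Ctrl. With the copies added, mt-Co1 came first in LL2 Ctrl, at a summed mean of 20605 TPM against 14352 TPM for mt-Atp6, and in CT26NYESO1 Ctrl, at 17920.2 TPM against 11659 TPM. In CT26 Ctrl the summed means were 9587 TPM for mt-Atp6 and 9566 TPM for mt-Co1. Their libraries overlapped and mt-Co1 was the higher in replicate 2, so these genes could not be ordered there. The plot of levels along the mitochondrial genome shows all 18 libraries.

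**Figure D3:**
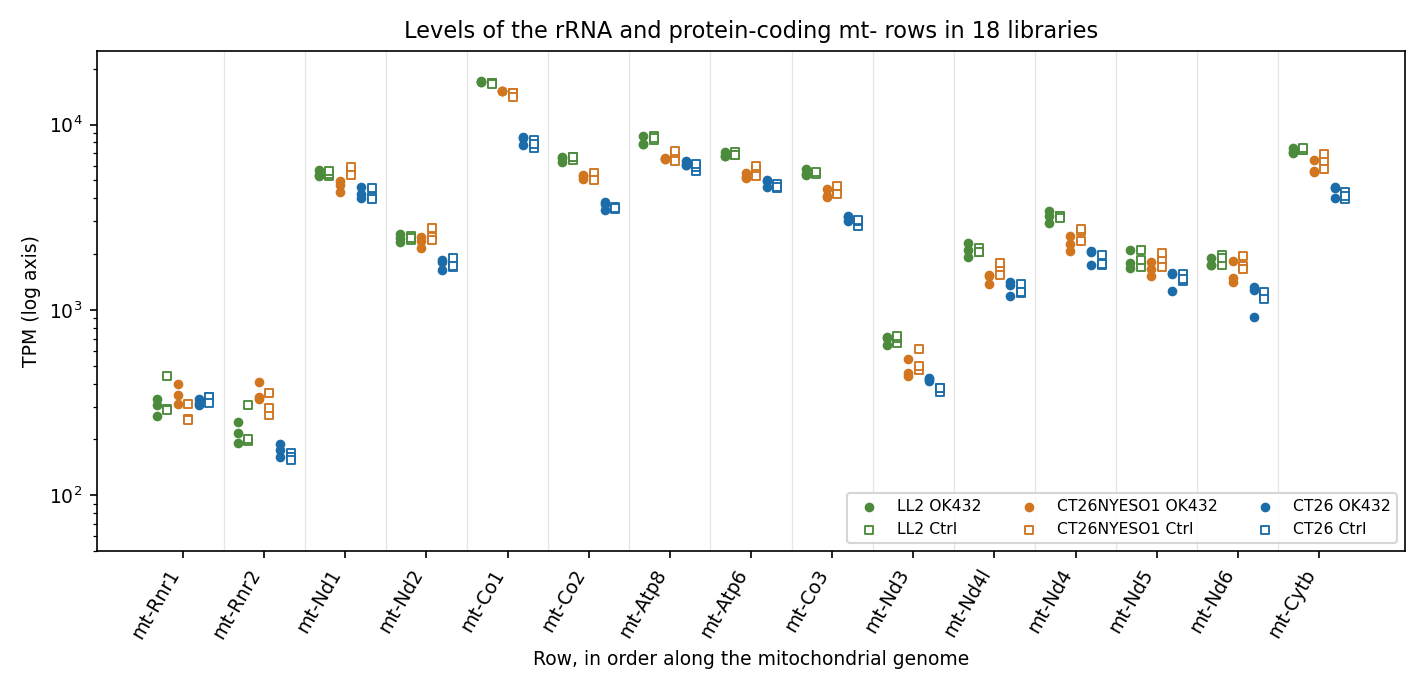
TPM (log axis) of the 2 rRNA and 13 protein-coding genes in each library, in genome order; colour is the tumour line, filled circles are OK432 and open squares Ctrl, 3 libraries per group. mt-Co1 is the highest gene in each library, and the rRNA rows lie between 155 and 440 TPM. The 3 colours separate for mt-Co1, mt-Co2, mt-Co3 and mt-Cytb, and more narrowly for mt-Atp6, mt-Atp8, mt-Nd3 and mt-Nd4. The treatment symbols of 1 colour lie close together.

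The untreated lines were compared next, gene by gene. Values were tested as log2(TPM + 1) with limma over 16816 genes, with Benjamini-Hochberg adjustment over all of them, and a gene was called at an adjusted p under 0.05. The background for these comparisons is high, because the lines differed at most genes. Of all genes tested, 64.9% were called between CT26NYESO1 Ctrl and CT26 Ctrl, 68.8% between LL2 Ctrl and CT26 Ctrl and 66.3% between LL2 Ctrl and CT26NYESO1 Ctrl. Those called higher in the line named first made up 21.1%, 29.1% and 38.8%. The 3 comparisons share their control groups pairwise and are not independent of each other. The labels do not say which line grew in which strain. Tumour line, the mix of cells and, wherever the hosts differed, host strain cannot be told apart, and in bulk tumour RNA fewer cells of a type and less RNA per cell cannot be told apart either.

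All 13 coding genes were higher in LL2 Ctrl and in CT26NYESO1 Ctrl tumours than in CT26 Ctrl tumours, except that under quantile normalization mt-Nd1 in LL2 stood at -0.0822, mt-Atp8 in CT26NYESO1 at -0.0425, and mt-Atp8 in LL2 and mt-Atp6 in CT26NYESO1 at 0, none of them called. Their median log2 difference was 0.69 for LL2 against CT26, where the median over all genes tested was -0.08, and 0.49 for CT26NYESO1 against CT26, where it was -0.18. Each of the 13 was called in both comparisons without further scaling, and no library of the higher line overlapped CT26 for any of them. With quantile normalization mt-Atp6, mt-Atp8, mt-Nd1, mt-Nd2 and mt-Nd5 lost their call in both comparisons. mt-Nd4, mt-Nd4l and mt-Nd6 then lost theirs in CT26NYESO1 over CT26. With all 37 rows counted, 34 were called higher in LL2 than in CT26 and 23 in CT26NYESO1 than in CT26, and none was called lower. Between LL2 and CT26NYESO1 the differences were smaller: the coding median was 0.30, with 0.10 over all genes, 21 rows were called higher in LL2 and 2 lower. The lower 2 were mt-Rnr2 and mt-Te. Scaling by the median of gene ratios brought the median of all genes to 0.00 in each pair, and the coding medians were then 0.80 for LL2 over CT26, 0.71 for CT26NYESO1 over CT26 and 0.19 for LL2 over CT26NYESO1. Quantile normalization gave coding medians of 0.29, 0.15 and 0.05 in the same order, where the medians of all genes were 0.07, 0.02 and 0.05. The size of the line differences therefore depended on the scaling.

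Against CT26, mt-Co1, the catalytic subunit of complex IV (cytochrome c oxidase), had the largest difference of the 13 coding genes in both LL2 and CT26NYESO1, except with quantile normalization, where mt-Nd3 had it (1.05 and 0.56). Between LL2 and CT26NYESO1 its difference was the smallest of those called. It measured 16730.1, 16796 and 16480.1 TPM in LL2 Ctrl, 14792, 14822 and 14068 TPM in CT26NYESO1 Ctrl and 7495, 8219 and 7835 TPM in CT26 Ctrl. The 3 lines did not overlap. The log2 difference was 1.09 ± 0.04 (SE) for LL2 over CT26 (limma, adjusted p = 8.1e-13) and 0.89 ± 0.04 for CT26NYESO1 over CT26 (adjusted p = 1.6e-11). Between LL2 and CT26NYESO1 it was 0.20 ± 0.04 (adjusted p = 0.00075), which dropped to 0.08 (adjusted p = 0.12) when libraries were scaled by the median of gene ratios and to 0 with quantile normalization. mt-Co2, which carries the copper centre that takes electrons from cytochrome c, differed by 0.90 for LL2 over CT26, 0.56 for CT26NYESO1 over CT26 and 0.34 for LL2 over CT26NYESO1. mt-Co3, a structural subunit of the core, differed by 0.89, 0.57 and 0.32 in the same order, and all 6 of these differences were called.

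mt-Co1 also took a larger part of the mitochondrial message pool in the higher lines. Within the summed TPM of the 13 genes it held 24.1% ± 0.364 in LL2 Ctrl, 24.5% ± 0.765 in CT26NYESO1 Ctrl and 19.1% ± 0.171 in CT26 Ctrl (SD, n = 3 each). The libraries of LL2 and CT26NYESO1 overlapped, and neither overlapped CT26, whose highest library was at 19.2%. In OK432 tumours mt-Co1 held 24.2% to 25.1% in LL2, 25.7% to 27.5% in CT26NYESO1 and 19.1% to 19.5% in CT26.

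Complex III has 1 mitochondrial gene and complex V has 2. mt-Cytb, the cytochrome b of complex III, was at 7326, 7276 and 7453 TPM in LL2 Ctrl, 6382, 6915 and 5782 TPM in CT26NYESO1 Ctrl and 3974, 4316 and 4131 TPM in CT26 Ctrl. Its log2 difference was 0.83 ± 0.07 for LL2 over CT26 (limma, adjusted p = 1.6e-08), 0.62 ± 0.07 for CT26NYESO1 over CT26 (adjusted p = 7.3e-07) and 0.21 ± 0.07 for LL2 over CT26NYESO1 (adjusted p = 0.013). The last of these dropped to 0.15 (adjusted p = 0.086) without CT26NYESO1 Ctrl replicate 3 and to 0.10 (adjusted p = 0.22) with median-of-ratios scaling, and it turned to -0.0200 (adjusted p = 0.77) with quantile normalization. mt-Atp6, the subunit that lines the proton path of ATP synthase, differed by 0.58 for LL2 over CT26, 0.28 for CT26NYESO1 over CT26 and 0.30 for LL2 over CT26NYESO1. mt-Atp8, a small membrane subunit of the same complex, differed by 0.52, 0.20 and 0.32, and each of the 6 was called. The smallest called difference of any coding gene, 0.20, was that of mt-Atp8 in CT26NYESO1 over CT26 and of mt-Co1 in LL2 over CT26NYESO1.

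The 7 genes of complex I (NADH dehydrogenase) split into genes that set LL2 apart from CT26NYESO1 and genes that did not. mt-Nd3, mt-Nd4 and mt-Nd4l, membrane-arm subunits, were called in all 3 pairs, with log2 differences of 0.90, 0.80 and 0.69 for LL2 over CT26, 0.49, 0.49 and 0.38 for CT26NYESO1 over CT26, and 0.41, 0.31 and 0.31 for LL2 over CT26NYESO1. mt-Nd1, mt-Nd2, mt-Nd5 and mt-Nd6 were called against CT26 only, at 0.34 to 0.65 for LL2 and 0.33 to 0.57 for CT26NYESO1. Between LL2 and CT26NYESO1 these 4 stood at -0.04, -0.06, 0.01 and 0.08, with adjusted p of 0.57, 0.48, 0.94 and 0.59, and their libraries overlapped. Relative to median-of-ratios scaling, which moves the median of all genes from 0.10 to 0.00 in this pair, mt-Nd1 and mt-Nd2 were lower in LL2 than in CT26NYESO1, at -0.16 (adjusted p = 0.027) and -0.17 (adjusted p = 0.021). With quantile normalization mt-Nd1 was at -0.23 (adjusted p = 0.018). Median-of-ratios scaling left 15 rows higher and 4 lower, in place of 21 and 2.

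mt-Nd1 shows how far the genes could part. It measured 5280, 5421 and 5600 TPM in LL2 Ctrl, 5596, 5886 and 5333 TPM in CT26NYESO1 Ctrl and 4058, 4521 and 3945 TPM in CT26 Ctrl. The LL2 and CT26NYESO1 libraries overlapped and both stood above CT26. Its log2 difference was 0.38 ± 0.07 for LL2 over CT26 (limma, adjusted p = 5.9e-05) and 0.43 ± 0.07 for CT26NYESO1 over CT26 (adjusted p = 2.1e-05). The ratio of mt-Co1 to mt-Nd1, both in TPM, was 3.07 ± 0.116 in LL2 Ctrl, 2.60 ± 0.0707 in CT26NYESO1 Ctrl and 1.88 ± 0.0900 in CT26 Ctrl (SD, n = 3 each), with no overlap between lines. This pair was chosen after its values were seen. mt-Nd6, the one coding gene on the minus strand, differed by 0.65 ± 0.12 for LL2 over CT26 and 0.57 ± 0.12 for CT26NYESO1 over CT26, within the range of the plus-strand genes. Since it is not known whether the authors' counting used strand, plus-strand reads over this stretch cannot be told apart from those of mt-Nd6. It made up 2.72% ± 0.151 of the 13-gene sum in LL2 Ctrl, 2.99% ± 0.0955 in CT26NYESO1 Ctrl and 2.91% ± 0.105 in CT26 Ctrl (SD, n = 3 each).

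The 2 rRNAs did not move together. mt-Rnr2, the large-subunit 16S rRNA, measured 308, 196 and 202 TPM in LL2 Ctrl, 271, 357 and 295 TPM in CT26NYESO1 Ctrl and 169, 160 and 155 TPM in CT26 Ctrl. It was higher in CT26NYESO1 than in CT26 by 0.92 ± 0.15 (limma, adjusted p = 6.8e-05) and higher in LL2 than in CT26 by 0.51 ± 0.15 (adjusted p = 0.0073). It was lower in LL2 than in CT26NYESO1 by a log2 difference of -0.41 ± 0.15 (adjusted p = 0.028), although LL2 Ctrl replicate 1 lay inside the CT26NYESO1 range. That last call was lost without CT26NYESO1 Ctrl replicate 2 (-0.29, adjusted p = 0.13), without LL2 Ctrl replicate 2 (-0.29, adjusted p = 0.13) without LL2 Ctrl replicate 3 (-0.31, adjusted p = 0.12) with quantile normalization (-0.34, adjusted p = 0.057), without the filter on low values (adjusted p = 0.058) and in a fit of the compared groups alone (adjusted p = 0.11). mt-Rnr1, the small-subunit 12S rRNA, measured 440, 292 and 289 TPM in LL2 Ctrl, 258, 309 and 253 TPM in CT26NYESO1 Ctrl and 337, 340 and 315 TPM in CT26 Ctrl. It was called in no pair by the test and settings used for the other rows, and in 2 pairs under some others. Its log2 difference was -0.28 for CT26NYESO1 over CT26 (adjusted p = 0.087), opposite in sign to the coding genes, 0.01 for LL2 over CT26 (adjusted p = 0.94) and 0.29 for LL2 over CT26NYESO1 (adjusted p = 0.073). The last was called without CT26NYESO1 Ctrl replicate 2 (0.38, adjusted p = 0.036), without LL2 Ctrl replicate 2 (0.39, adjusted p = 0.033), without LL2 Ctrl replicate 3 (0.39, adjusted p = 0.028), with quantile normalization (0.37, adjusted p = 0.024) and with the muscle covariate described below (0.32, adjusted p = 0.046).

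Without LL2 Ctrl replicate 1, whose rRNA rows stood above those of the other 2 libraries, mt-Rnr1 in CT26NYESO1 over CT26 was again -0.28 and was called (adjusted p = 0.016), with only the shared estimate of spread altered. It was also called without CT26NYESO1 Ctrl replicate 2 (-0.37, adjusted p = 0.043) and in a fit of the compared groups alone (-0.28, adjusted p = 0.020). The ratio of mt-Rnr2 to mt-Rnr1 was 0.673 to 0.700 in LL2 Ctrl, 1.05 to 1.16 in CT26NYESO1 Ctrl and 0.469 to 0.501 in CT26 Ctrl. The 3 lines did not overlap in this ratio, LL2 Ctrl replicate 1 included. How much rRNA passed the selection for polyadenylated RNA in each library was not tested.

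The tRNA rows are 59 to 75 bases long, shorter than most sequenced fragments, and their TPM is uncertain for that reason. Of the 22 rows, 20 were called higher in LL2 than in CT26, 9 in CT26NYESO1 than in CT26, and 12 higher and 1 lower in LL2 than in CT26NYESO1. Rows mt-Tf, mt-Tq and mt-Tv were each listed at 0 in 1 library, all of CT26 Ctrl, and give the widest intervals. Among the tRNA rows, 19 reached at most 190.2 TPM in any library. Within each group the remaining 3 rows stood above all of those 19 in every library. They are mt-Ts1 (chrM:6870-6938, minus strand), mt-Tl1 (chrM:2676-2750, plus strand), which sits between mt-Rnr2 and mt-Nd1, and mt-Te (chrM:14071-14139, minus strand), which sits between mt-Nd6 and mt-Cytb. Their genomic sequences are shown because they carry most of the tRNA signal, with capitals for the 3 bases of mt-Ts1 that overlap the end of mt-Co1 on the other strand.
mt-Ts1: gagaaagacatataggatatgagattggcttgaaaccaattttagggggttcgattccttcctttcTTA
mt-Tl1: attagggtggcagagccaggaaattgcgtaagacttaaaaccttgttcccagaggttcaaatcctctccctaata
mt-Te: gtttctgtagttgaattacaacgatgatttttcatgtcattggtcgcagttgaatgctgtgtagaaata

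mt-Ts1, a serine tRNA, measured 833, 839 and 858 TPM in LL2 Ctrl, 755, 756 and 718 TPM in CT26NYESO1 Ctrl and 352, 376 and 384 TPM in CT26 Ctrl. Its log2 differences, 1.18 for LL2 over CT26, 1.002 for CT26NYESO1 over CT26 and 0.18 for LL2 over CT26NYESO1, were close to those of mt-Co1 (1.09, 0.89 and 0.20), whose end it faces. The sources used here do not state whether the authors' counting used strand, so reads of mt-Co1 and of mt-Ts1 cannot be told apart at that end. mt-Tl1, a leucine tRNA, measured 525, 561 and 615 TPM in LL2 Ctrl, 416, 562 and 485 TPM in CT26NYESO1 Ctrl and 216, 214 and 220 TPM in CT26 Ctrl. It was higher in LL2 than in CT26 by 1.38 (limma, adjusted p = 1.2e-08) and in CT26NYESO1 than in CT26 by 1.16 (adjusted p = 1.3e-07).

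mt-Te, the glutamate tRNA, was with mt-Rnr2 one of the 2 rows called lower in LL2 than in CT26NYESO1. It measured 355, 291 and 337 TPM in LL2 Ctrl, 466, 593 and 463 TPM in CT26NYESO1 Ctrl and 227, 235 and 209.5 TPM in CT26 Ctrl. The 3 lines did not overlap, and the difference of LL2 over CT26NYESO1 was -0.62 (limma, adjusted p = 0.0010), while mt-Cytb and mt-Nd6 beside it stood at 0.21 and 0.08. mt-Tr, the arginine tRNA between mt-Nd3 and mt-Nd4l, differed most in the other direction among rows called in all 3 pairs, at 2.01 for LL2 over CT26, 0.86 for CT26NYESO1 over CT26 and 1.15 for LL2 over CT26NYESO1. These 2 rows were singled out after their values were seen.

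**Figure D4:**
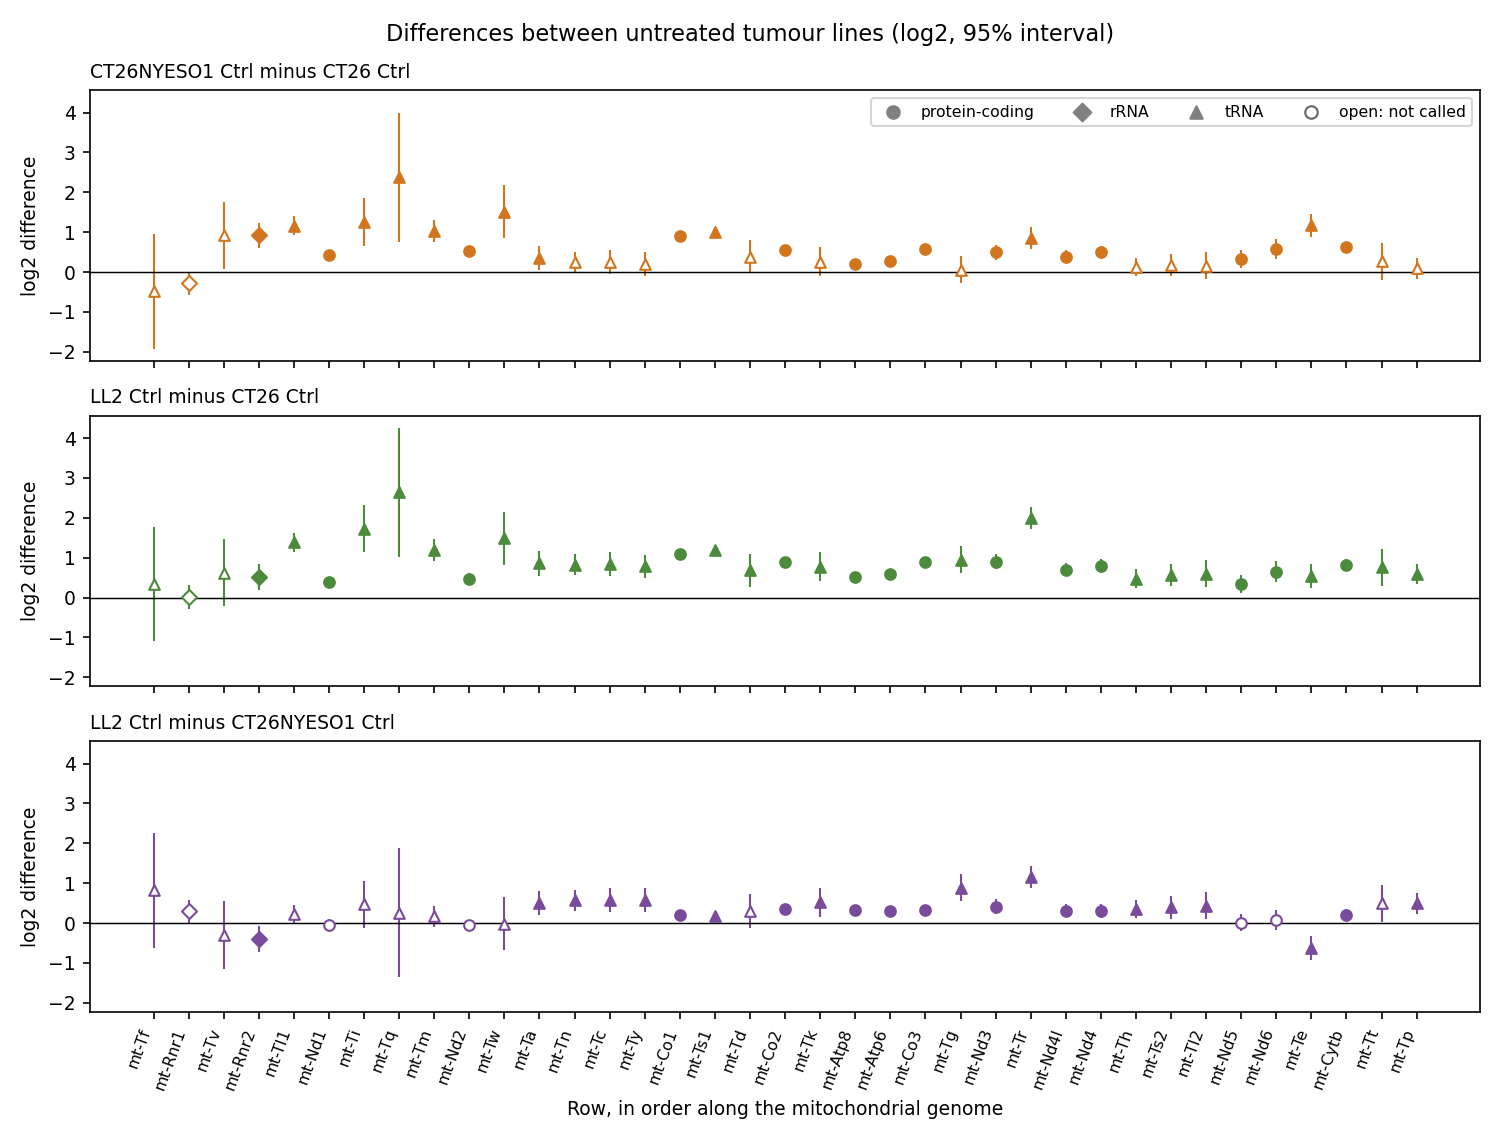
Log2 difference (vertical axis, limma, with 95% interval) of the 37 mitochondrial rows in genome order, for 3 pairs of Ctrl groups; filled symbols were called at an adjusted p under 0.05 and open ones were not. On this scale all coding genes are filled and above 0 against CT26, mt-Rnr1 is open in each panel, and in the lowest panel mt-Rnr2 and mt-Te lie below 0.

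The nuclear genes of the same complexes did not show a like shift across the board. Over all genes tested, 68.8% were called in LL2 over CT26, 64.9% in CT26NYESO1 over CT26 and 66.3% in LL2 over CT26NYESO1. Those called higher made up 29.1%, 21.1% and 38.8% of all genes, and these shares are the background for the gene lists that follow. Among the 11 nuclear subunits of complex IV, 6 were called higher and 1 lower in LL2 than in CT26 (median 0.32), 9 higher and 1 lower in CT26NYESO1 than in CT26 (median 0.45), and 1 higher and 6 lower in LL2 than in CT26NYESO1 (median -0.20). Cox8a, a small subunit, was higher in CT26NYESO1 than in CT26 by 0.86, and Cox7c by 0.59. Ndufa4, an associated subunit, was higher in LL2 than in CT26NYESO1 by 0.65, while Cox6b1 was lower by a log2 difference of -0.57. So the mitochondrial and nuclear genes of complex IV had medians of opposite sign between LL2 and CT26NYESO1, 0.32 over the 3 mitochondrial genes and -0.20 over the 11 nuclear ones. These medians are not a test of the difference.

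Complex I and complex V gave a mixed picture. Of 37 nuclear complex I subunits, 12 were called higher and 10 lower in LL2 than in CT26 (median 0.06) and 14 higher and 10 lower in CT26NYESO1 than in CT26 (median 0.04), where all 7 mitochondrial ones were higher. Ndufa13, an accessory subunit, was higher in CT26NYESO1 than in CT26, at 0.70. Of 17 nuclear complex V subunits, 10 were called higher and 2 lower in LL2 than in CT26 (median 0.35), and 10 higher and 3 lower in CT26NYESO1 than in CT26 (median 0.19). Atp5md was higher by 0.83 in LL2 and Atp5l by 0.66 in CT26NYESO1, both against CT26. Complex III had 4 of 9 higher and 1 lower in LL2 than in CT26, and 4 higher and 2 lower in CT26NYESO1 than in CT26. Cyc1, the cytochrome c1 that works beside cytochrome b, was lower in both, at -0.64 and -0.59. Complex II, which has no mitochondrial gene, had 3 of 4 higher and 1 lower in LL2 and 2 higher and 2 lower in CT26NYESO1, each against CT26, with Sdha, its flavoprotein, at 0.95 and 0.25.

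Genes that copy, transcribe and process mitochondrial DNA and RNA were called in both directions, as were genes in general. Over all genes tested, 29.1% were called higher out of 68.8% called in LL2 over CT26. It was 21.1% out of 64.9% in CT26NYESO1 over CT26 and 38.8% out of 66.3% in LL2 over CT26NYESO1. Of 17 genes of replication and transcription, 9 were called higher and 4 lower in LL2 than in CT26, and 5 higher and 6 lower in CT26NYESO1 than in CT26. Top1mt, the mitochondrial topoisomerase, was lower at -1.95 in LL2 and -1.28 in CT26NYESO1 against CT26. Polrmt, the RNA polymerase that transcribes the mitochondrial genome, was lower in CT26NYESO1 than in CT26, at -0.99 (limma, adjusted p = 1.7e-07), while the coding genes were higher there. Twnk, the replicative helicase, was higher in LL2 than in CT26 by 0.68. Of 21 genes of RNA processing and stability, 12 were higher and 4 lower in LL2 than in CT26, 5 higher and 10 lower in CT26NYESO1 than in CT26, and 13 higher and 2 lower in LL2 than in CT26NYESO1. Prorp, the nuclease subunit that cuts at the 5' end of tRNAs, was higher in LL2 by 0.87 against CT26 and 1.27 against CT26NYESO1. Slirp, which binds and stabilises mitochondrial messages, was higher in LL2 than in CT26NYESO1 by 1.001.

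Mitochondrial ribosomal proteins, encoded in the nucleus, had 40 of 81 called higher and 23 lower in LL2 than in CT26 (median 0.14), and 20 higher and 34 lower in CT26NYESO1 than in CT26 (median -0.12). Mrpl36 was higher in both, at 1.45 and 1.10, and Mrpl39 was lower in CT26NYESO1 than in CT26 at -1.18. Among 7 tested regulators of mitochondrial biogenesis, Ppargc1b, a coactivator of respiratory genes, was higher by 0.77 in LL2 and 1.06 in CT26NYESO1 against CT26, and Esrra, a nuclear receptor it works with, by 0.40 and 0.47. The list as a whole did not follow these genes in CT26NYESO1. Its 8 genes summed to 256 to 269 TPM in LL2 Ctrl, 230 to 251 TPM in CT26NYESO1 Ctrl and 231 to 244 TPM in CT26 Ctrl, with overlap between CT26NYESO1 and CT26. Of 10 chaperones and proteases, 4 were higher and 4 lower in LL2, and 3 higher and 4 lower in CT26NYESO1, each against CT26. Atf5, a transcription factor of the mitochondrial stress response, was lower in LL2 than in CT26 at -2.68 and than in CT26NYESO1 at -2.77. All 6 chromosome 1 copies, which share the sequence of the mitochondrial genes, were called higher in each of the 3 pairs.

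Markers of other cell types moved with the lines as well. Muscle is rich in mitochondria, and the summed TPM of 15 skeletal muscle markers ran from 124 to 236 in LL2 Ctrl, 129 to 309 in CT26NYESO1 Ctrl and 36.1 to 38.1 in CT26 Ctrl, with 2 of the 15 at 0 in every CT26 Ctrl library. Of the 13 tested, 8 were called higher in LL2 and 1 in CT26NYESO1 than in CT26, and Acta1, the skeletal actin, ran from 0.135 to 77.2 TPM within CT26NYESO1 Ctrl alone. With a muscle score as a covariate, 32 of the 37 rows were called higher in LL2 than in CT26 and 21 in CT26NYESO1 than in CT26, in place of 34 and 23. mt-Nd5 lost its call in both (0.27, adjusted p = 0.083 for LL2, and 0.27, adjusted p = 0.058 for CT26NYESO1). Among Ctrl tumours the muscle sums of CT26 lay wholly below those of LL2 and CT26NYESO1. In OK432 tumours the muscle sums overlapped between lines, at 57.8 to 502 TPM in LL2, 120 to 263 TPM in CT26NYESO1 and 45.5 to 211 TPM in CT26. The fit of all 18 libraries took its muscle slope from differences among libraries of the same group. Whether that slope holds between lines was not tested, so the part of muscle in the mitochondrial differences stays unknown. The 7 fibroblast markers summed to 3089 to 3768 TPM in LL2 Ctrl, 1265 to 1670 TPM in CT26NYESO1 Ctrl and 6218 to 9338 TPM in CT26 Ctrl, and 6 endothelial markers to 75.3 to 114, 58.1 to 83.3 and 337 to 394 TPM. The 10 macrophage markers summed to 1433 to 1690 TPM in LL2 Ctrl, 2561 to 3452 TPM in CT26NYESO1 Ctrl and 2899 to 3259 TPM in CT26 Ctrl. The part of the fibroblast, endothelial and macrophage differences in the mitochondrial levels was not tested. Of the epithelial markers, Epcam reached at most 0.304 TPM in any library. Krt8 and Krt18 were at 146 to 261 and 227 to 305 TPM in LL2 Ctrl but at most 0.199 and 0.338 TPM in CT26 Ctrl. In CT26NYESO1 Ctrl they parted, with Krt8 at most 0.117 TPM and Krt18 at 8.86 to 13.8 TPM.

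OK-432 was examined next, within each line. None of the 37 mitochondrial rows was called in any line, where the background was 0% of all genes tested in CT26, 0.666% in CT26NYESO1 and 0.0178% in LL2. At an unadjusted p under 0.05 there were 3 of 37 in CT26, 5 in CT26NYESO1 and 1 in LL2, against 689, 2727 and 884 of 16816 genes. The average of the 3 effects called 0 rows, with a background of 0.172%. Nor was any row called for a difference between the effects of CT26NYESO1 and CT26 (background 0%), of LL2 and CT26 (0.00595%) or of LL2 and CT26NYESO1 (0.00595%), all by limma with Benjamini-Hochberg adjustment. With so few calls among all genes, a count of 0 says little about the mitochondrial rows in particular, and the intervals are the more informative measure.

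The intervals bounded the change of the coding genes, given an estimate of spread shared by all 6 groups. In LL2 the 13 log2 differences of OK432 over Ctrl ran from -0.06 to 0.03, and their 95% intervals from -0.32 to 0.19. In CT26 they ran from -0.05 to 0.18, with intervals from -0.30 to 0.36. In CT26NYESO1 they ran from -0.27 to 0.05, with intervals from -0.43 to 0.14. The median was -0.01 in LL2, 0.06 in CT26 and -0.13 in CT26NYESO1, where the median over all genes was -0.01, 0.00 and -0.02. With 1 library left out, the CT26NYESO1 median was -0.06 without Ctrl replicate 2 and -0.08 without OK432 replicate 3, and the CT26 median was 0.04 without Ctrl replicate 1 or OK432 replicate 1 and 0.11 without OK432 replicate 2. The LL2 median ran from -0.04 to 0.01 and so changed sign. The interval half-widths were 0.09 for mt-Co1 and 0.25 for mt-Nd6, the narrowest and the widest among the coding genes. The largest differences among the tRNA rows came with intervals up to 1.61 wide on either side.

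**Figure D5:**
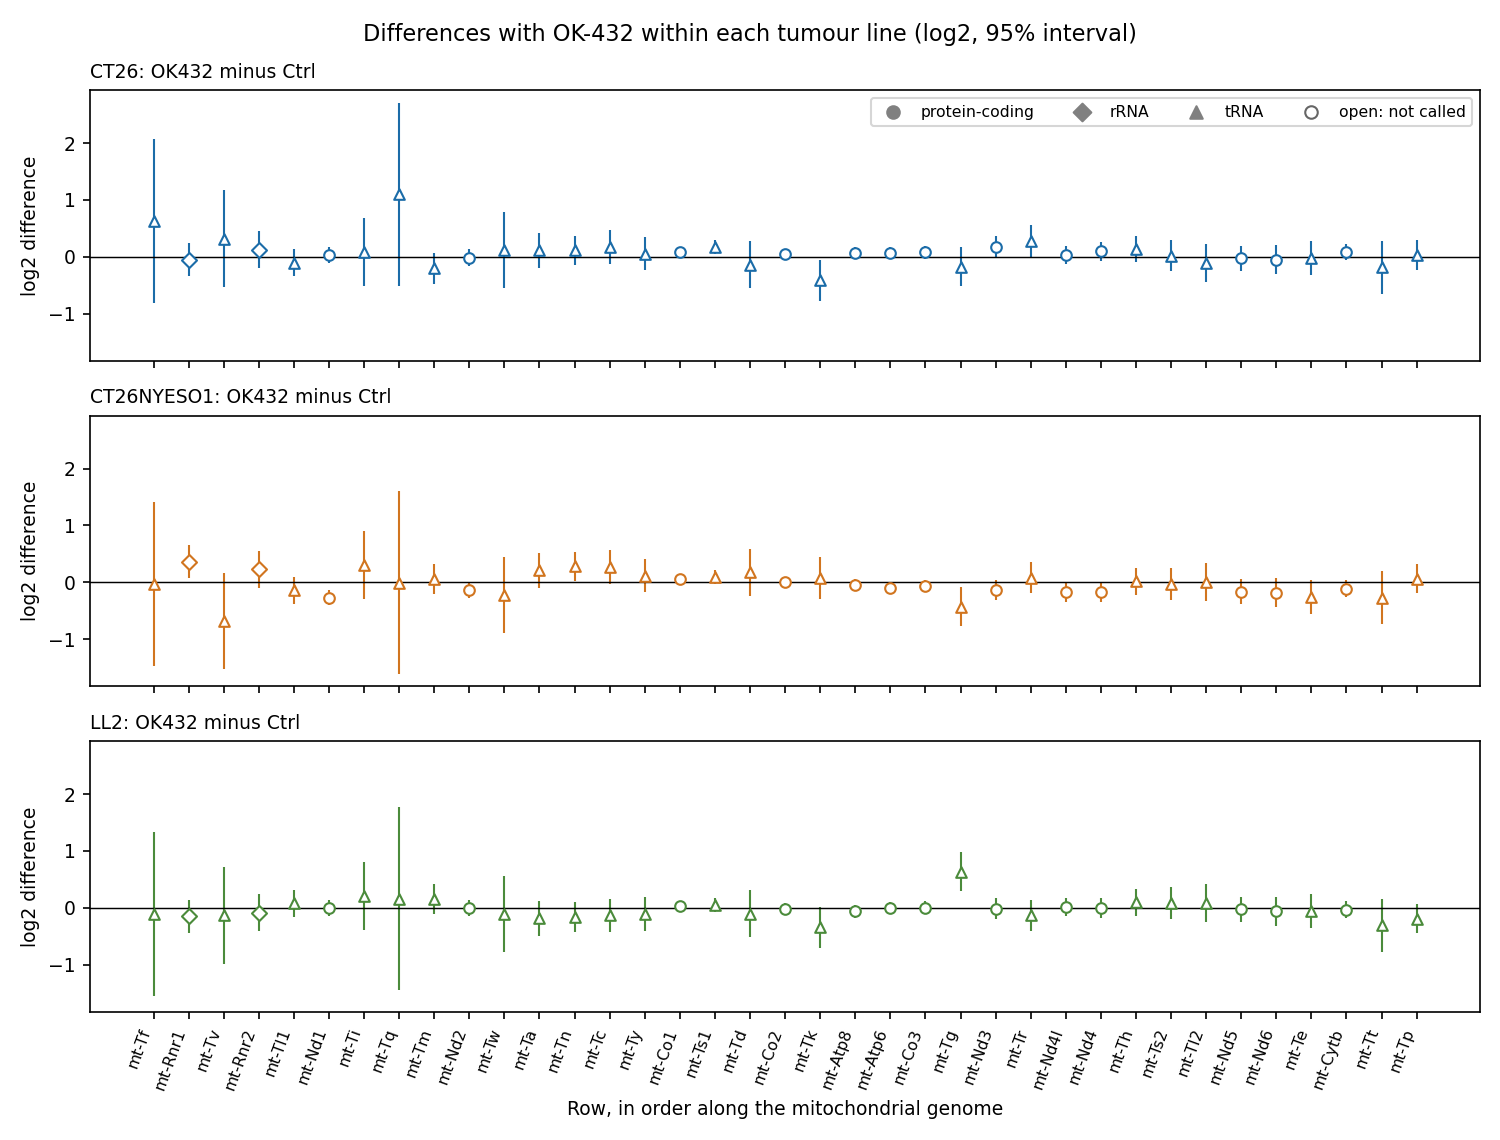
Log2 difference of OK432 over Ctrl (vertical axis, limma, with 95% interval) of the 37 mitochondrial rows in genome order, 1 panel per tumour line. Every symbol is open, since no row was called, and the coding genes lie within 0.27 of 0 in each panel.

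In CT26NYESO1, the line with the most calls over all genes, the mitochondrial genes differed in sign. Of the 13 coding genes 11 had a negative difference, with all 7 of complex I between -0.27 and -0.13, while mt-Co1 stood at 0.05 and mt-Co2 at 0.00. mt-Nd1 measured 4974, 4704 and 4307 TPM in CT26NYESO1 OK432, against 5596, 5886 and 5333 TPM in CT26NYESO1 Ctrl. The groups did not overlap, and the difference was -0.27 ± 0.07 (limma, adjusted p = 0.069), just outside the threshold. It was called without CT26NYESO1 OK432 replicate 1 (-0.32, adjusted p = 0.044). mt-Co1 measured 15092, 15079 and 15138 TPM in CT26NYESO1 OK432, against 14792, 14822 and 14068 TPM in CT26NYESO1 Ctrl, with no overlap and a difference of 0.05 (adjusted p = 0.59). The ratio of mt-Co1 to mt-Nd1 was 3.03 to 3.51 in OK432, against 2.52 to 2.64 in Ctrl, a pair of genes chosen after its values were seen. In LL2 that ratio was 3.03 to 3.21 in OK432 and 2.94 to 3.17 in Ctrl, and in CT26 it was 1.85 to 2.03 in OK432 and 1.82 to 1.99 in Ctrl.

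Both rRNA rows of CT26NYESO1 had positive differences. mt-Rnr1 measured 349, 311 and 398 TPM in OK432, against 258, 309 and 253 TPM in Ctrl, which left the groups narrowly apart, and its difference was 0.36 ± 0.14 (limma, adjusted p = 0.20). mt-Rnr2 measured 331, 338 and 410 TPM in OK432, against 271, 357 and 295 TPM in Ctrl, with overlap, and its difference was 0.23 ± 0.15 (adjusted p = 0.50). In LL2 both rRNA rows were at -0.15 and -0.09, and in CT26 at -0.05 for mt-Rnr1 and 0.12 for mt-Rnr2, none called. Groups failed to overlap for 7 of the 37 rows in CT26NYESO1 (3 higher, 4 lower), 4 in CT26 (3 higher, 1 lower) and 4 in LL2 (all higher). Over all genes tested, the OK432 libraries all lay above the Ctrl libraries in 7.14% of genes in CT26NYESO1, 4.79% in CT26 and 4.70% in LL2, and all below in 9.84%, 5.10% and 5.17%.

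One tRNA row stood out in LL2, singled out after its values were seen. mt-Tg, the glycine tRNA between mt-Co3 and mt-Nd3, measured 18.7, 19.8 and 16.2 TPM in LL2 OK432, against 10.9, 11.5 and 11.7 TPM in LL2 Ctrl. The groups were apart, and the difference was 0.64 (limma, adjusted p = 0.50). In CT26NYESO1 the row was at 3.22, 4.72 and 3.97 TPM in OK432, against 4.87, 6.42 and 5.76 TPM in Ctrl, a difference of -0.43 (adjusted p = 0.19). In CT26 it was at 6.17, 3.52 and 4.65 TPM in OK432, against 6.12, 5.97 and 4.29 TPM in Ctrl. The effects of LL2 and CT26NYESO1 differed by 1.07 (adjusted p = 0.25), and by 1.17 (adjusted p = 0.045) without CT26NYESO1 OK432 replicate 2.

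The nuclear mitochondrial genes and cell type markers were read against the share of all genes called with OK-432. That share was 0.666% in CT26NYESO1, 0.0178% in LL2 and 0% in CT26, so an absence of calls in LL2 and CT26 says little about these lists. In CT26NYESO1, Sdhb, the iron-sulphur subunit of complex II, was lower at -0.27 (limma, adjusted p = 0.025), and 3 of 81 mitochondrial ribosomal proteins were lower, Mrpl57 at -0.35, Mrpl20 at -0.32 and Mrpl2 at -0.28. No other gene of the nuclear respiratory, replication, RNA processing, biogenesis or chaperone lists was called in any line. In the same tumours 8 of 13 tested neutrophil markers rose, S100a9 by 6.04 (adjusted p = 0.0043) and S100a8 by 4.62 (adjusted p = 0.0095), and of 10 macrophage markers 1 rose, the receptor Cd14, by 0.63. The 10 macrophage markers had a median difference of -0.24 and summed to 1985 to 3105 TPM in CT26NYESO1 OK432, against 2561 to 3452 TPM in Ctrl, with overlap. The 14 neutrophil markers summed to 165 to 935 TPM in CT26NYESO1 OK432, against 54.6 to 80.7 TPM in Ctrl, to 208 to 355 TPM in LL2 OK432, against 67.9 to 83.2 TPM in Ctrl, and to 148 to 244 TPM in CT26 OK432, against 50.7 to 62.6 TPM in Ctrl. These sums did not overlap in any line, while the mitochondrial share did in every line. Estimated from the 2 CT26NYESO1 groups alone, the spread left no gene called, the neutrophil markers, Sdhb and the ribosomal proteins included. Whether the mix of cells had a part in the mitochondrial levels was not tested.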

How the data were processed

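The authors deposited 1 table of TPM values for 55291 genes in 18 libraries, each summing to 1000000. Per the submitters' processing notes, the tools were STAR 2.7.3a, StringTie 2.1.2 and Trim Galore 0.6.5, and the build mm10. The sources used here give no annotation, no strand setting and no rule for reads that map to several places. Depth per library cannot be read from TPM, so no counting interval is given.

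Genes with at least 1 TPM in at least 3 libraries (16816, all 37 mitochondrial rows included) were tested as log2(TPM + 1) with limma 3.58.1 in R 4.3.3. One fit of 6 group means with 12 residual degrees of freedom and trended, robust shrinkage gave all comparisons, and p-values were adjusted by Benjamini-Hochberg over all genes. Log2 differences on this scale understate changes of low genes. The fit was tested on simulated data with independent noise and with changes larger than those of the coding genes with OK-432. That test does not speak to changes as small as theirs. Gene positions and sequences come from GENCODE M21 on mm10, in which 53292 of the table's symbols were found. Copies were aligned locally with Biopython 1.88.

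The text names all 13 coding and 2 rRNA genes and, from each list, up to 3 called genes with the largest differences, or the largest uncalled one. One such gene is not reported here. The members and lists were chosen with earlier results of these data known. Whether replicate numbers pair the libraries is not known, and the main fit did not pair them. Deviations of same-numbered libraries correlated at -0.12 to 0.22, which cannot settle it with 3 libraries per group. Alternatives were another pseudocount, no filter, other scalings, other fits, a muscle covariate and each library left out.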

Additional observations from a re-analysis of the deposited data

How the results depend on the processing

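No row was called with OK-432 in any line under any of the alternative pseudocount, filter, scaling and fit settings. With each library left out in turn, the count was 0 to 1 in CT26NYESO1 and 0 to 1 for the difference between the effects of LL2 and CT26NYESO1, and 0 otherwise. With the replicate block the count stayed at 0 in each line, and between untreated lines it was 23 for CT26NYESO1 against CT26, 34 for LL2 against CT26 and 23 for LL2 against CT26NYESO1. With median-of-ratios scaling these counts were 33, 34 and 19. That scaling also moved the share of higher calls among all called genes from 32.5% to 49.3% for CT26NYESO1 against CT26 and from 42.2% to 49.7% for LL2 against CT26, and quantile normalization moved it to 51.8% and 55.3%. Of 38 called differences of coding and rRNA genes, 20 held in every alternative. Quantile normalization, which gives the highest rows of all libraries nearly the same values by construction, ended or reversed 18 of them. It reversed mt-Atp8 in CT26NYESO1 over CT26 (-0.0425), mt-Nd1 in LL2 over CT26 (-0.0822) and mt-Cytb in LL2 over CT26NYESO1 (-0.0200). Outside it, 5 lost their call in at least 1 alternative. With TPM weighted by gene length, the log2 ratio of the mitochondrial share was 0.79 for CT26NYESO1 over CT26, 0.90 for LL2 over CT26 and 0.11 for LL2 over CT26NYESO1, in place of 0.54, 0.75 and 0.21. Counting only the 13 coding genes, another denominator, medians or the added copies moved it by less than the spread between libraries. Depth is unknown, so which differences the read numbers could show is not known either.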
